A study of Mus musculus with 27 samples.

Results

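The assembly factors of cytochrome c oxidase were followed in single muscle fibers of mice that lack *Smn1* in skeletal muscle. They were chosen by symbol, as the 10 genes *Cox18*, *Tmem177*, *Oxa1l*, *Cox10*, *Cox11*, *Cox15*, *Cox17*, *Sco1*, *Sco2* and *Surf1*, out of 35527 gene names on the array. They are read by 16 of its 55681 probes, each an oligonucleotide of 60 bases. Each array held the RNA of 1 myofiber of the tibialis anterior, a fast muscle of the lower leg, amplified by itself in 18 cycles. The 27 myofibers came from 7 male mice whose labelled age is 3 months. WT myofibers numbered 8, 4 from each of 2 wild-type mice, which the study describes as control littermates, while its methods name C57BL/6 GFP+ mice for the isolation of fibers. Smn1deltaSKM myofibers numbered 12, 4 from each of 3 mice of the genotype HSA-Cre, Smn F7/F7, in which the human skeletal actin promoter drives Cre and Cre removes exon 7 of *Smn1* in muscle fibers. The Smn1deltaSKM+AFS group held 7 myofibers of 2 mice of that same genotype, 4 from mouse 1 and 3 from mouse 2. These numbers are those of the labels, and the study's text also gives other numbers of treated fibers and mice. Those mice had received c-kit+ GFP+ amniotic fluid stem (AFS) cells through the tail vein at 3 months and were sacrificed 1 month later. This account of the study conflicts with their labelled age of 3 months. If they were older than the other mice, age and treatment cannot be told apart.

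Cytochrome c oxidase, also called complex IV, ends the respiratory chain of mitochondria by passing electrons from cytochrome c to oxygen. Its catalytic core, COX1, COX2 and COX3, is encoded in mitochondrial DNA and is joined by small subunits encoded in the nucleus, so the enzyme has to be put together from parts of different origin. Assembly factors take part in this without remaining in the finished enzyme. They insert the core proteins into the inner membrane, make heme A, deliver copper, and hold early intermediates. Muscle and nervous tissue depend strongly on the enzyme, and mutations of human *SURF1*, *SCO2*, *COX10* and *COX15* are known causes of cytochrome oxidase deficiency.

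Values are given as log2 of the signal minus the 75th percentile of the same array, so 0 is the level that 75% of its probes do not exceed. Probes differ in how strongly they bind, and values of different probes are therefore not compared with each other. A spot without a signal well above the background, or marked as uneven, had no value. An array gave values for 23183 to 37595 probes, and no spot was saturated. The number of arrays limits the precision. The *Smn1* probe A_55_P2048848 lay between 0.63 and 2.38 in WT, between -1.41 and 0.66 in Smn1deltaSKM, and between -1.04 and 1.32 in Smn1deltaSKM+AFS myofibers. Its difference between Smn1deltaSKM and WT was -1.68 (limma, adjusted p = 0.0205), whereas that of the other *Smn1* probe was 0.19 (adjusted p = 0.717). Whether either lies in the removed exon was not determined here. Of the 7 muscle fiber genes *Acta1*, *Ckm*, *Tnnt3*, *Mylpf*, *Myh4*, *Myh1* and *Myh2*, 5 had a value on every WT array and *Myh2* had none there. Levels of each list, in units of the 75th percentile, were summed over each gene's brightest probe. Spots without a value entered with their measured signal. The muscle fiber sum was 1088 to 1567 in WT, 648 to 1073 in Smn1deltaSKM and 941 to 1413 in Smn1deltaSKM+AFS myofibers. The first 2 groups did not overlap. In the comparison of Smn1deltaSKM with WT, described below, 6 of these 7 genes were tested and 21.3% of all probes were called. Of the 6 genes 3 were called, *Ckm* (-1.76) and *Mylpf* (-1.99) lower and *Myh1* (2.20) higher. The macrophage and leukocyte list (4 genes) was 21.7 to 35.1 in WT, 19.0 to 33.5 in Smn1deltaSKM and 17.7 to 37.5 in Smn1deltaSKM+AFS. Of its 3 tested genes 2 were called higher in Smn1deltaSKM, *Cd68* (2.99) and *Ptprc* (1.33). The tested *Csf1r* probes lay at -0.50 and 0.39 and were not called. The slow fiber list (4 genes) was 0.896 to 1.76 in WT, 2.09 to 4.10 in Smn1deltaSKM and 2.04 to 33.8 in Smn1deltaSKM+AFS. Neither of the latter overlapped WT, but 0 of the 4 genes had a value on every WT array. The WT sums thus rest in part on spots without a value. How often groups part in this way over all probes was not determined. In Smn1deltaSKM *Tnni1* (1.21) was called higher, whereas *Myh7* (-0.08) and *Tnnt1* (0.09) were not called. The satellite cell, endothelium, fibroblast and erythrocyte lists overlapped between all groups. *Pdgfra* had no value on any WT array. The part of these markers in the results was not tested.

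The 8 WT arrays filled a slide that had its own scan day, and no array of another group shared either. Slide, scan day and genotype therefore cannot be told apart in any comparison with WT. Smn1deltaSKM myofibers 1 to 3, all of mouse 1, were also on a slide of their own and were scanned on another day than the other 9. They stood apart in several of the assembly factors. Differences from WT are given with and without them for the called probes, *Cox11*, *Sco2* and *Surf1*. For *Cox17* the range over other settings is given.

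The comparison of Smn1deltaSKM with WT asked whether loss of SMN in muscle went along with other levels of the assembly factors. All 10 tested probes, of 8 genes, were lower in Smn1deltaSKM, by -0.03 to -2.13 on the log2 scale. The 3 that passed the test belong to *Tmem177*, a partner of the COX2 chaperone COX20, *Oxa1l*, the inner membrane insertase, and *Cox10*, which makes the heme precursor of heme A. Mouse means were compared by limma, with the 22882 probes measured on 75% or more of the WT and Smn1deltaSKM arrays, and a probe was called at an adjusted p under 0.05. This test called 21.3% of all probes, and 14.3% of all probes were called and lower. Before adjustment, 6 of the 10 probes had a p under 0.05. The median difference of the 10 probes was -0.91 against -0.16 over all probes tested, 56.6% of which were negative. The study had already named *Cox18*, *Tmem177* and *Oxa1l* as lower in Smn1deltaSKM from these same arrays. Their part in the calls and in this median is therefore no independent support. The 3 Smn1deltaSKM mice were all under the 2 WT mice for 7 of the 10 probes, and for 33.9% of all 22882. No probe of *Cox18* or *Sco1* had enough values to be tested. Leaving out WT mouse 1 or WT mouse 2 ended all calls in the data set, and leaving out Smn1deltaSKM mouse 1 raised the members' count to 7 and that of all probes from 4876 to 9961 of 22882. With mouse 2 or mouse 3 of Smn1deltaSKM left out, 1 member call was left, that of *Tmem177* A_52_P219372, among 1879 and 2092 of all 22882 probes. It was also the 1 member call with only these 2 groups fitted, among 3632.

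**Figure D1:**
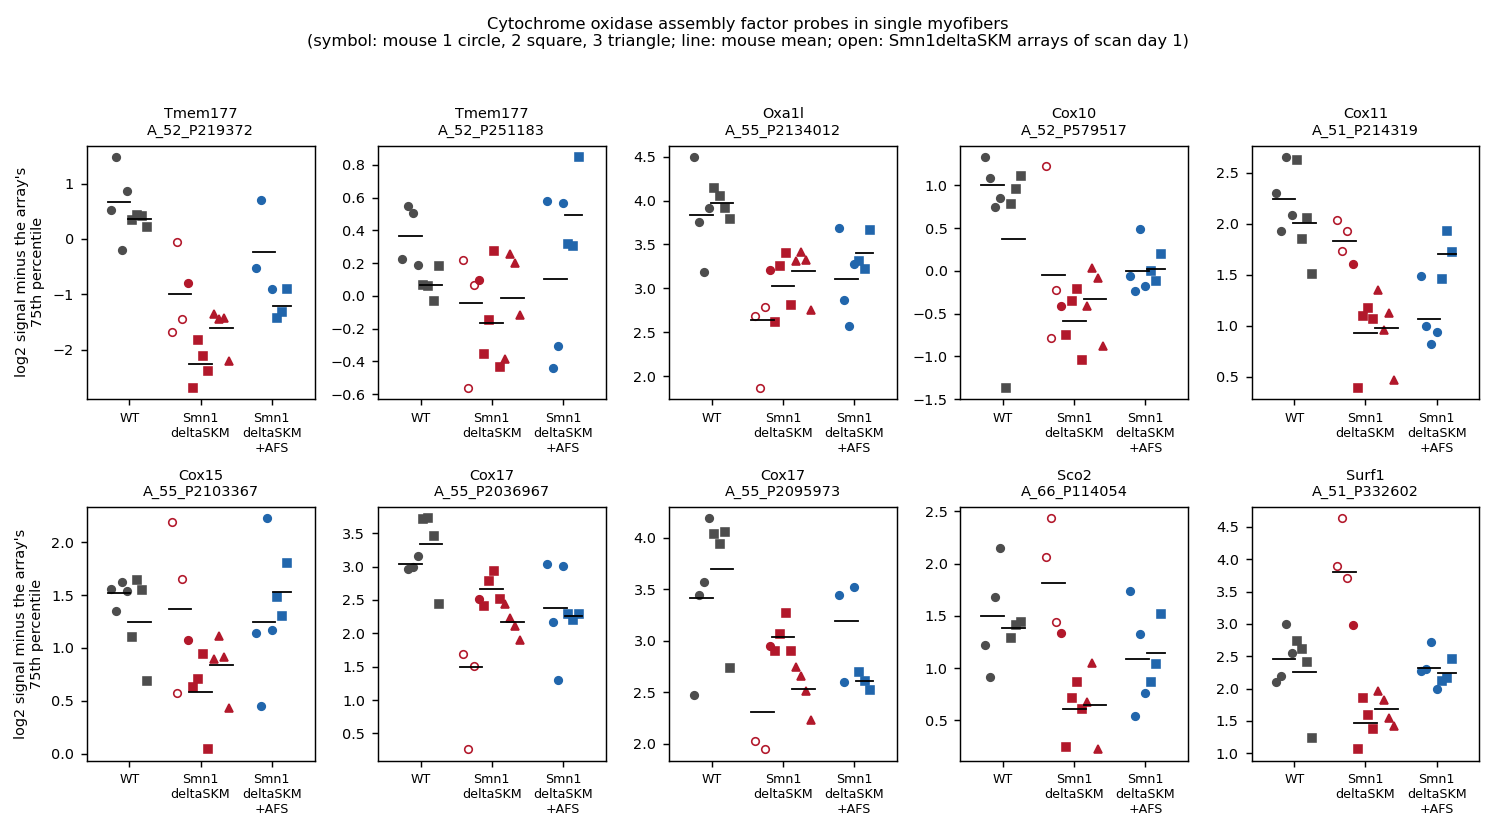
Log2 signal minus the array's 75th percentile (y axis) of the 10 tested assembly factor probes on each array, by group (x axis). Symbols stand for mice, lines for mouse means, and open circles for the Smn1deltaSKM arrays of scan day 1. For *Tmem177* A_52_P219372, 11 of 12 Smn1deltaSKM myofibers lay below the lowest WT myofiber, and for *Surf1* the 3 open circles lay at 3.71 to 4.63, above every other array.

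Among the tested probes the largest difference was that of *Tmem177* A_52_P219372. TMEM177 binds COX20 and affects the stability of newly made COX2. The gene is read by a pair of probes on chromosome 1 whose starts lie 2249 bases apart, and they gave unlike results, so both are shown (mm9, minus strand, chr1:121806731-121806790 and chr1:121804482-121804541).
Tmem177 A_52_P219372: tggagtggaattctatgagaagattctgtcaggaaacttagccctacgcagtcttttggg
Tmem177 A_52_P251183: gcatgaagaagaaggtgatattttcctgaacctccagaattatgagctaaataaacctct
The files place the probes in the gene by name and do not say whether they lie in a coding exon or a UTR. For A_52_P219372 the mouse means were 0.67 and 0.35 in WT, and -0.99, -2.25 and -1.61 in Smn1deltaSKM. WT myofibers lay between -0.20 and 1.48 with a median of 0.43, and Smn1deltaSKM myofibers between -2.68 and -0.05 with a median of -1.57. Among the latter, only myofiber 2 (mouse 1) reached the WT range. The probe was 4.37-fold lower in Smn1deltaSKM (log2 difference -2.13, standard error 0.436, limma, adjusted p = 0.0171). For A_52_P251183 the mouse means were 0.37 and 0.07 in WT, and -0.04, -0.17 and -0.01 in Smn1deltaSKM. Every Smn1deltaSKM mouse was again below both WT mice, but the difference of -0.29 did not pass the test (95% interval -0.91 to 0.33, limma, adjusted p = 0.449). Within an array, the value of A_52_P219372 minus that of A_52_P251183 averaged 0.30 and 0.28 in the WT mice, and -0.95, -2.08 and -1.59 in the Smn1deltaSKM mice. The probes thus changed unequally, and Pearson's r between them over 26 arrays was 0.191. With the probes of each gene averaged *Tmem177* was still called, at -1.21 (limma, adjusted p = 0.0278).

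OXA1L inserts mitochondrially made proteins into the inner membrane, and COX18 translocates the tail of COX2 across it. The *Oxa1l* probe A_55_P2134012 (mm9, plus strand, chr14:54988259-54988318) had values on all arrays, with mouse means of 3.84 and 3.97 in WT, and 2.64, 3.02 and 3.20 in Smn1deltaSKM. WT myofibers ran from 3.18 to 4.50 and Smn1deltaSKM myofibers from 1.87 to 3.42, and 6 of these 12 lay below the lowest WT myofiber. This was a 1.93-fold lower level (log2 difference -0.95, standard error 0.286, limma, adjusted p = 0.0476). The call was near the threshold and was lost with 15 of 21 other settings, where the difference was between -1.07 and -0.44 in all 21. Another *Oxa1l* probe, A_51_P219061, starts 657 bases further on and was dim. It had values on 6 of 8 WT and 4 of 12 Smn1deltaSKM arrays and so was not tested. Its measured signal, read on every array whether or not it stood above the background, was -1.31 to -0.08 in WT and -3.33 to -1.79 in Smn1deltaSKM, without overlap. Of these arrays, 8 of 8 and 9 of 12 were well above the background. With the measured signal kept and all 55681 probes tested, of which 7026 were called, the difference was -2.09 (standard error 0.368, limma, adjusted p = 0.0109).

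The 1 probe of *Cox18* (A_55_P1990134, mm9, minus strand, chr5:90643924-90643983) had values on 6 of 8 WT and 6 of 12 Smn1deltaSKM arrays. Its measured signal ran from -1.48 to -0.08 with a median of -0.66 in WT, where all 8 arrays were well above the background. In Smn1deltaSKM it ran from -3.45 to -1.61 with a median of -2.78, with 8 of 12 arrays well above the background. The groups did not overlap, and with the measured signal kept the difference was -1.90 (standard error 0.433, limma, adjusted p = 0.0237). It was -1.50 with only the available values and no filter (limma, adjusted p = 0.0400), where 3441 of 36222 probes were called. With the value table of the authors it was -1.53 (limma, adjusted p = 0.0473), where 4050 of 25735 were called. The share of all probes without overlap was not determined, for this probe or the dim *Oxa1l* probe. Since 4 Smn1deltaSKM arrays were not well above the background, the size of this difference is uncertain.

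Heme A, the redox cofactor found in cytochrome oxidase, is made by COX10, which adds the farnesyl tail to heme B, and COX15, which oxidises the product. *Cox10* was called by the test, and its probe is shown for that reason (A_52_P579517, mm9, minus strand, chr11:63885069-63885128).
Cox10 A_52_P579517: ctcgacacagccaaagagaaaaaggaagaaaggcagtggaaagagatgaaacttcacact
The mouse means of *Cox10* were 1.01 and 0.37 in WT, and -0.05, -0.59 and -0.33 in Smn1deltaSKM. The WT myofibers lay between 0.75 and 1.33 except for myofiber 5, of mouse 2, at -1.37, which was lower than every Smn1deltaSKM myofiber (-1.04 to 1.22). With all of them the level was 2.02-fold lower in Smn1deltaSKM (log2 difference -1.01, standard error 0.307, limma, adjusted p = 0.0488). The call was lost with 16 of 21 other settings, among them quantile normalization (-1.02, adjusted p = 0.0562) and myofibers with the mouse as a random block (-1.01, adjusted p = 0.0605). Differences ran from -1.33 to -0.62 over these settings. *Cox15* was read by A_55_P2103367 (mm9, minus strand, chr19:43812528-43812587), with mouse means of 1.52 and 1.25 in WT, and 1.37, 0.58 and 0.84 in Smn1deltaSKM. Mouse 1 of Smn1deltaSKM lay between the WT mice, and the difference of -0.45 did not pass the test (95% interval -1.17 to 0.27, limma, adjusted p = 0.321). The dim *Cox15* probe A_51_P354744 had values on 7 of 8 WT and 3 of 12 Smn1deltaSKM arrays. Its measured signal was -2.50 to -1.20 in WT and -4.79 to -2.49 in Smn1deltaSKM, so that the ranges barely met. With the measured signal kept its difference was -1.96 (standard error 0.460, limma, adjusted p = 0.0256), with 4 of 12 Smn1deltaSKM arrays well above the background.

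Copper reaches the catalytic core through COX17, the copper chaperone of the intermembrane space, which hands it to SCO1 and SCO2 for COX2 and to COX11 for COX1. For *Cox11* (A_51_P214319, mm9, plus strand, chr11:90506186-90506245) the mouse means were 2.24 and 2.01 in WT, and 1.83, 0.93 and 0.98 in Smn1deltaSKM. The 8 Smn1deltaSKM myofibers of mice 2 and 3 all lay below the lowest WT myofiber (1.51), and the 4 of mouse 1 all lay within the WT range. The difference of -0.88 (standard error 0.365) did not pass the test (limma, adjusted p = 0.113). Without Smn1deltaSKM mouse 1 it was -1.17 and passed (limma, adjusted p = 0.0128), as did 9961 of all 22882 probes. Without myofibers 1 to 3 alone it was -0.95 and did not pass (limma, adjusted p = 0.0552).

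*Cox17* is read by 3 probes on chromosome 16. A_55_P2036967 and A_55_P2095973 (mm9, plus strand, chr16:38352772-38352831 and chr16:38352786-38352845) share 46 of their 60 bases, and their values correlated at r = 0.968 over 24 arrays. The former had mouse means of 3.04 and 3.33 in WT, and 1.50, 2.66 and 2.17 in Smn1deltaSKM. The latter had 3.42 and 3.69 in WT, and 2.31, 3.03 and 2.53 in Smn1deltaSKM. All Smn1deltaSKM mice were below both WT mice for both probes, but neither difference was called, at -1.08 (limma, adjusted p = 0.0660) and -0.93 (adjusted p = 0.0747). Over 20 other settings the former ran from -1.35 to -0.74 and the latter from -1.13 to -0.56. The third probe of the gene starts 9409 bases away and had values on 2 of 8 WT and 9 of 12 Smn1deltaSKM arrays (A_55_P2008711, mm9, plus strand, chr16:38362195-38362254). It is shown because it pointed the other way.
Cox17 A_55_P2008711: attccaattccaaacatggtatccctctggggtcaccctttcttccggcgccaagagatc
With the measured signal kept the signal was -5.20 to -1.62 in WT and -3.63 to 0.05 in Smn1deltaSKM, higher in the latter by 1.82 (limma, standard error 0.387, adjusted p = 0.0194). As few as 2 of 8 WT arrays stood clear of the background, which leaves the size uncertain.

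SCO1 and SCO2 are related copper proteins that mature the copper centre of COX2. For *Sco2* (A_66_P114054, mm9, minus strand, chr15:89202216-89202275) the mouse means were 1.49 and 1.38 in WT, and 1.82, 0.61 and 0.65 in Smn1deltaSKM. Mouse 1 was above both WT mice and the other Smn1deltaSKM mice below them. The difference of -0.41 did not pass the test (95% interval -1.31 to 0.49, limma, adjusted p = 0.465). Without mouse 1 it was -0.81 and passed (limma, adjusted p = 0.0213), as did 9961 of all 22882 probes. Without myofibers 1 to 3 alone it was -0.57 and did not pass (limma, adjusted p = 0.166). The *Sco1* probe A_52_P43848 (mm9, plus strand, chr11:66880734-66880793) had values on 3 of 8 WT, 7 of 12 Smn1deltaSKM and 5 of 7 Smn1deltaSKM+AFS arrays. Its measured signal ran from -3.27 to -1.43 in WT and from -4.09 to -2.26 in Smn1deltaSKM, and the difference with that signal was -0.48 (limma, adjusted p = 0.340). The other *Sco1* probe, A_55_P2051259, was not well above the background on any of the 27 arrays. Even so, with the measured signal kept its difference was -1.095 (standard error 0.413, limma, adjusted p = 0.106). A difference of that size thus arose without a signal above the background, which limits the reading of the other dim probes. The 75th percentile had a median of 6.73 over WT and 7.44 over Smn1deltaSKM arrays, and its part was not tested.

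**Figure D2:**
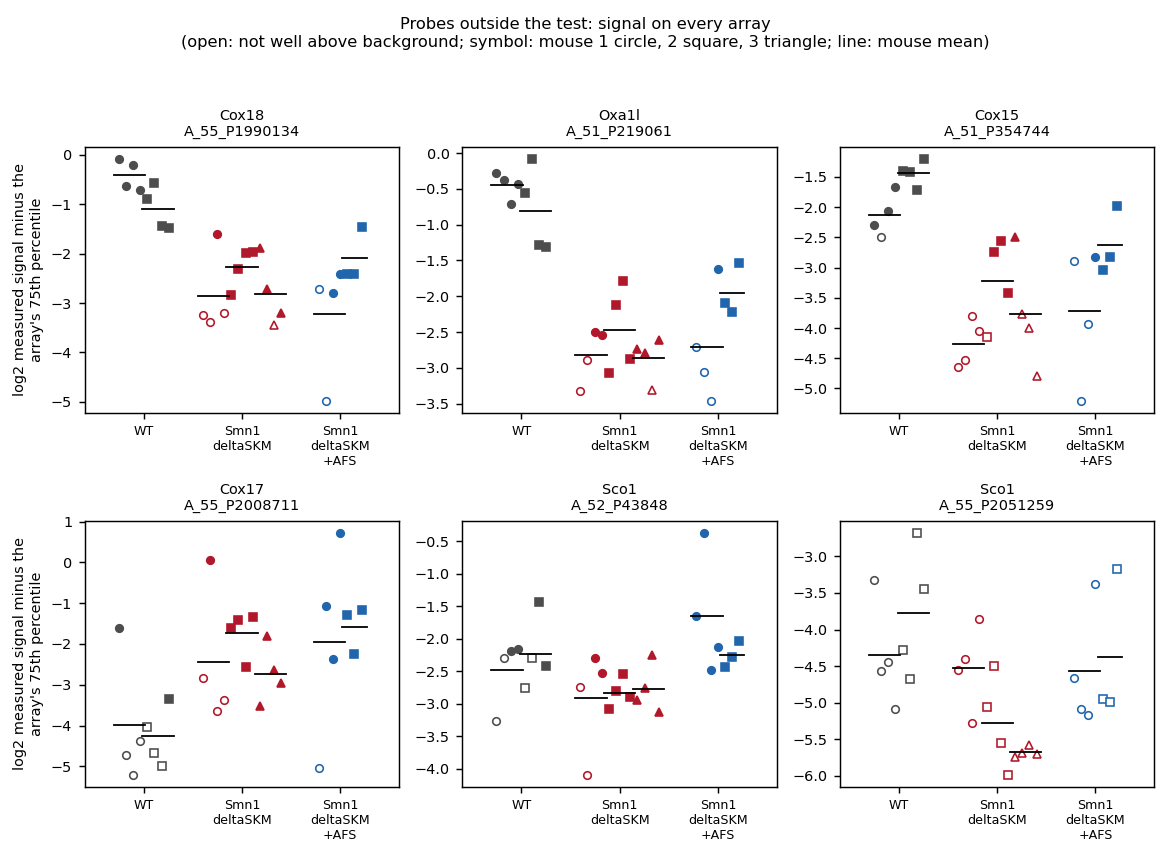
Measured log2 signal minus the array's 75th percentile (y axis) of the 6 probes that had too few values to be tested, on every array by group (x axis). Open symbols are not well above the background, symbols stand for mice and lines for mouse means. *Cox18* and *Oxa1l* A_51_P219061 did not overlap between WT and Smn1deltaSKM, whereas *Cox17* A_55_P2008711 lay mostly higher in Smn1deltaSKM than in WT.

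SURF1 acts early in assembly, around COX1 and its heme. The *Surf1* probe (A_51_P332602, mm9, minus strand, chr2:26769469-26769528) is shown since the Smn1deltaSKM mice disagreed most on it.
Surf1 A_51_P332602: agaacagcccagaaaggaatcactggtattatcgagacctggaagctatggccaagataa
Its mouse means were 2.46 and 2.25 in WT, and 3.80, 1.47 and 1.69 in Smn1deltaSKM. In mouse 1, myofibers 1, 2 and 3 lay at 3.89, 4.63 and 3.71 and myofiber 4, which was scanned on the same day as the other mice, at 2.98. The 8 myofibers of mice 2 and 3 lay between 1.06 and 1.96, and WT between 1.24 and 3.00. Over all mice the difference was -0.03 (95% interval -1.47 to 1.40, limma, adjusted p = 0.973). Without mouse 1 the difference of *Surf1* was -0.77 and passed the test (limma, adjusted p = 0.0291), as did 9961 of all 22882 probes. Without myofibers 1 to 3 alone the difference was -0.31 (limma, adjusted p = 0.603).

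Myofibers 1 to 3 of Smn1deltaSKM also differed from the 8 of mice 2 and 3 in other members, and not in 1 direction. *Sco2* lay at 1.44 to 2.43 in these 3 and at 0.23 to 1.05 in mice 2 and 3, and *Cox11* at 1.73 to 2.04 against 0.39 to 1.35. *Cox17* ran the other way, at 0.27 to 1.69 against 1.90 to 2.94 for A_55_P2036967 and at 1.95 to 2.02 (2 values) against 2.23 to 3.26 for A_55_P2095973. *Oxa1l* A_55_P2134012 overlapped, at 1.87 to 2.78 against 2.62 to 3.42, and so did *Tmem177* A_52_P219372, at -1.68 to -0.05 against -2.68 to -1.35. Myofiber 4 of the same mouse lay at 1.34 for *Sco2* and 1.61 for *Cox11*, above mice 2 and 3, and at 2.52 and 2.95 for the *Cox17* probes, within them. Without myofibers 1 to 3, 6396 of all 22882 probes were called. Among them were the same 3 member probes, *Tmem177* A_52_P219372 at -2.06 (limma, adjusted p = 0.0156), *Oxa1l* A_55_P2134012 at -0.76 (0.0478) and *Cox10* at -1.13 (0.0198). The part of the slide or of mouse 1 in these values was not tested.

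Treatment with AFS cells was compared with Smn1deltaSKM to ask whether the members were at other levels 1 month after transplantation. Most were somewhat higher in treated mice, but none passed the test. Over 22169 probes limma called 0.0% between Smn1deltaSKM+AFS and Smn1deltaSKM, 0 probes in all with 712 at an unadjusted p under 0.05. Of the 10 member probes 9 were higher and *Surf1* was lower (-0.04), with a median of 0.29 against 0.061 over all probes, 42.3% of which were lower. None of the 10 had an unadjusted p under 0.05. Both treated mice lay above all Smn1deltaSKM mice for *Cox10* and for *Tmem177* A_52_P251183, 2 of 10 probes, where 12.2% of all probes did so.

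*Tmem177* A_52_P219372 had the largest difference in this comparison. The treated mice were at -0.24 and -1.21, with values on 3 of 4 and 3 of 3 arrays. Its difference was 0.89 (95% interval -0.10 to 1.89, limma, adjusted p = 0.9999). The array without a value, myofiber 3 of mouse 1, had the lowest measured signal of the group, at -2.76, and with the measured signal kept the difference was 0.58 (95% interval -0.35 to 1.50). Myofiber 2 of treated mouse 1 lay at 0.71 and the other 5 with values between -1.43 and -0.52. Within scan day 2, with 3 Smn1deltaSKM and 2 treated mice, the difference was 0.59 (adjusted p = 0.928). On day 1, with 1 mouse of each group and myofiber 2 as the 1 treated value, it was 1.76, and between the 1 array of each group on the slide that held both it was -0.11. A_52_P251183 was at 0.10 and 0.49 in the treated mice, a difference of 0.37 (95% interval -0.25 to 0.99), with 0.56 within day 2 and -0.28 on day 1.

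*Oxa1l* A_55_P2134012 averaged 3.25 ± 0.21 (SD, n = 2) over the treated mice, 0.30 above Smn1deltaSKM (95% interval -0.35 to 0.95). *Cox10* was at 0.00 and 0.02, a difference of 0.34 (95% interval -0.36 to 1.04), and *Cox15* A_55_P2103367 at 1.25 and 1.53, a difference of 0.46 (95% interval -0.26 to 1.18). Within scan day 2 these differences were 0.30, 0.39 and 0.51, and on day 1 they were 0.27, 0.06 and -0.13. Among the tested probes of the copper genes, *Cox11* gave 0.14, the *Cox17* probes A_55_P2036967 and A_55_P2095973 0.21 and 0.27, and *Sco2* 0.09. These changed with the scan day: *Cox11* gave 0.29 on day 2 and -0.99 on day 1, *Sco2* 0.33 and -1.05, and *Surf1* 0.14 and -1.56. The day 1 values set treated myofibers 2 and 3 against Smn1deltaSKM myofibers 1 to 3. Intervals of this width do not show that the treated and untreated mice were alike.

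Among the dim probes, *Cox18* had a measured signal of -4.98 to -1.45 in Smn1deltaSKM+AFS, with 5 of 7 arrays well above the background. The difference from Smn1deltaSKM in the fit of measured signals was -0.01 (95% interval -0.97 to 0.95). *Oxa1l* A_51_P219061 was at -3.46 to -1.54 with 4 of 7 arrays well above the background, a difference of 0.38 (95% interval -0.43 to 1.20). *Sco1* A_52_P43848 was well above the background on all 7 treated arrays, with a measured signal of -2.48 to -0.36. Its difference from Smn1deltaSKM was 0.89 with the measured signal kept (95% interval 0.13 to 1.64, limma, adjusted p = 1.0000).

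Between Smn1deltaSKM+AFS and WT the question was whether treated mice still differed from wild type. Here 8 of 10 member probes were lower and 0 were called, where limma called 7.33% of all 22169 probes and 4.34% were called and lower. The median of the 10 probes was -0.66 against -0.065 over all probes, 53.1% of which were negative. *Tmem177* A_52_P219372 had the lowest p, with a difference of -1.24 (standard error 0.477, 95% interval -2.33 to -0.15, limma, adjusted p = 0.131). *Cox17* A_55_P2036967 followed at -0.87 (adjusted p = 0.188), *Oxa1l* A_55_P2134012 at -0.66 (0.202) and *Cox10* at -0.68 (0.218). *Cox15* A_55_P2103367 (0.01) and *Tmem177* A_52_P251183 (0.08) were those on the other side of 0. With Smn1deltaSKM mouse 1 left out of the shared fit, *Tmem177* A_52_P219372 (limma, adjusted p = 0.0406) and *Cox17* A_55_P2036967 (0.0406) were called, among 6501 of all 22169 probes. With the measured signal kept, 2759 of all 55681 probes and 3 of the 16 member probes were called: *Oxa1l* A_51_P219061 at -1.70 (adjusted p = 0.0426), *Cox18* at -1.91 (0.0491) and *Cox17* A_55_P2008711, higher by 2.36 (0.0197). The WT mice are shared with the comparison of Smn1deltaSKM with WT, and the treated mice with the comparison of treatment, so the 3 sets of differences are not independent.

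**Figure D3:**
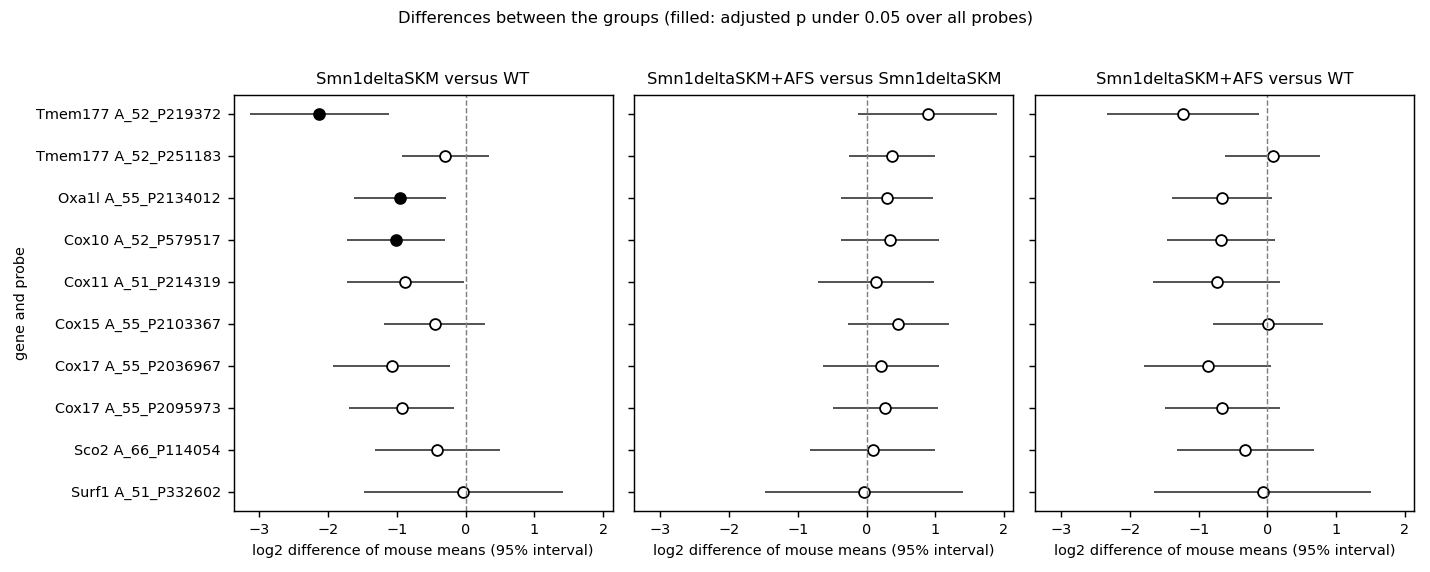
Log2 differences of mouse means (x axis, with 95% intervals from limma) for the 10 tested probes (y axis) in the 3 comparisons. Filled points have an adjusted p under 0.05 over all probes. Filled points appear only for Smn1deltaSKM versus WT, at -2.13 for *Tmem177* A_52_P219372, -0.95 for *Oxa1l* and -1.01 for *Cox10*.

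Beside these members stood the other known assembly factors and the subunits of the enzyme. Of 18 other factors 16 were on the array and 14 were tested with 15 probes. In Smn1deltaSKM 3 of them were lower than in WT by the test: *Lrpprc*, an RNA binding protein that stabilises mitochondrial transcripts (-1.93, limma, adjusted p = 0.0461), *Smim20*, a small protein of early COX1 assembly (-1.40, 0.0137), and *Cox16*, which acts in the joining of COX2 (-1.38, 0.0273). None was called higher, 12 of 15 probes were negative, and their median was -0.42. Of 20 subunits 18 were on the array and 17 were tested with 22 probes. The 4 called were all lower, *Cox6b1* (-1.27, limma, adjusted p = 0.0220), *Ndufa4* (-1.02, 0.0323), *Cox7a2* (-0.89, 0.0444) and *Cox5a* (-0.84, 0.0490), with 18 of 22 probes negative and a median of -0.55. The test called 21.3% of all probes, so neither 3 of 14 factors nor 4 of 17 subunits stands out from that share. Between Smn1deltaSKM+AFS and Smn1deltaSKM 0 genes of either list were called. All 15 probes of the other factors and 21 of 22 subunit probes were higher in the treated mice, with medians of 0.36 and 0.38. Over all probes 42.3% were lower. In the list of muscle fiber genes 6 of 7 probes were higher as well, with a median of 0.38. *Lrpprc* (1.15) and *Coa3* (0.95) had the largest differences among the other factors, and *Cox7a1* (0.82) and *Cox6a1* (0.68) among the subunits. Between Smn1deltaSKM+AFS and WT 0 genes were called as well, and the medians were -0.0013 for the factors and -0.11 for the subunits. There *Cox16* (-1.13) and *Coa5* (0.95) lay farthest from 0 among the factors, and *Cox6b1* (-0.75) and *Cox7c* (-0.73) among the subunits.

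**Figure D4:**
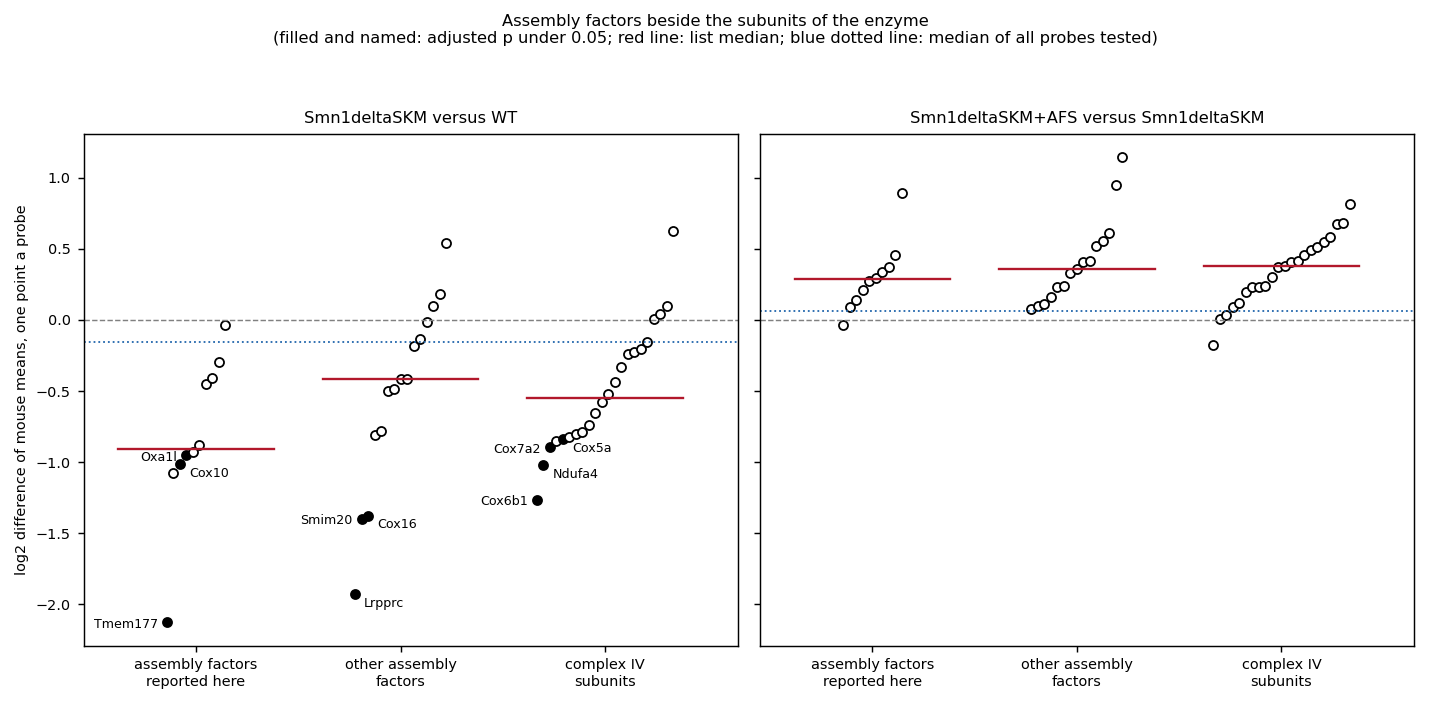
Log2 differences of mouse means (y axis) of each tested probe of the members, the other assembly factors and the complex IV subunits (x axis), for Smn1deltaSKM versus WT and for Smn1deltaSKM+AFS versus Smn1deltaSKM. Red lines are list medians (-0.91, -0.42 and -0.55 in the former, 0.29, 0.36 and 0.38 in the latter), blue dotted lines the median of all probes tested (-0.16 and 0.061), and filled points, found in the former only, were called.

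Promoter sequence was looked up in RefSeq (GRCm38.p6) from 250 bases before to 50 after each gene's start, and 8 of the 10 members were matched, not *Cox17* and *Cox18*. NRF-1 and the ETS family factor NRF-2 are known regulators of nuclear genes for the respiratory chain, and their core motifs were searched on both strands. The letters CCGGAA, the core of an ETS site, occurred in 5 of the 8 windows, those of *Surf1*, *Cox10*, *Sco1*, *Cox11* and *Cox15*, and in 14.9% of all 32851 windows. The NRF-1 core, GCGCA and GCGC with any 1 base between them, occurred in that of *Oxa1l* and in 4.6% of all windows. GGGCGG, a GC box, occurred in 6 of the 8 and in 35.7% of all. The promoters of the 3 genes with called probes are printed with the ETS or NRF-1 match in capitals. That of *Tmem177* held neither.
Tmem177 chr1:119913134-119913433, minus strand: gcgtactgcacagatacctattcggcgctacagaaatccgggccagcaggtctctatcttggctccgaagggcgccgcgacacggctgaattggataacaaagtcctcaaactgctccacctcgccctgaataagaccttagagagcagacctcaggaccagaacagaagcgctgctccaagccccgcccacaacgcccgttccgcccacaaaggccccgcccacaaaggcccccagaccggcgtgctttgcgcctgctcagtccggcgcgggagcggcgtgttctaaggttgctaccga
Oxa1l chr14:54360591-54360890, plus strand: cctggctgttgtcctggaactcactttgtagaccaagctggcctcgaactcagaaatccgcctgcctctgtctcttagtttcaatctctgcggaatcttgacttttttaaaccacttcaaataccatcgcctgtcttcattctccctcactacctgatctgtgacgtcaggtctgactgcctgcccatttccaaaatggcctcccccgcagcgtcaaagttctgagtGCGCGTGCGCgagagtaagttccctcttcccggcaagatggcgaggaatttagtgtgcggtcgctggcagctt
Cox10 chr11:64079423-64079722, minus strand: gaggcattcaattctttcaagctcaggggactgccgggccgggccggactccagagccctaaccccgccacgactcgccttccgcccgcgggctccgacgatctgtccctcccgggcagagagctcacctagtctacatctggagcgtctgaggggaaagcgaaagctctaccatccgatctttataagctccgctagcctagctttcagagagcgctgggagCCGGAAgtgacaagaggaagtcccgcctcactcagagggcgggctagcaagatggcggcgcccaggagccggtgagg
The first base of the match lies 23 bases before the start in *Oxa1l* and 27 before it in *Cox10*. A match of letters is a description and not a site.

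Across the 27 myofibers most pairs of members were positively correlated. Over the 45 pairs of tested probes Pearson's r ran from -0.397 to 0.968 with a median of 0.387, and 39 pairs were positive. *Sco2* and *Surf1* had r = 0.759, *Oxa1l* A_55_P2134012 and *Cox17* A_55_P2036967 had r = 0.858, and *Surf1* and *Cox17* A_55_P2036967 had the lowest value. These values share the group differences, the slides and the amplification of each fiber. The mean of the members' tested probes, each standardised first, was most like *Mrpl4*, a protein of the mitochondrial ribosome (r = 0.955 over 27 arrays), *Endog*, a mitochondrial endonuclease (0.926), *Them4* (0.924 over 21 arrays), *Gm16379* (0.923) and *Isca1*, an iron-sulfur cluster protein (0.912), against a median of 0.153 over all probes. For *Oxa1l* A_55_P2134012 the genes most like it were *Tmem63b* (0.934) and *Paox* (0.927), together with a probe named by its position alone (0.929). For *Tmem177* A_52_P251183 they were *Magix* (0.845 over 23 arrays), *Epas1* (0.780 over 26) and another probe of that kind (0.769). A_52_P219372, added after its values were seen, was most like *Them4* (0.948 over 21 arrays), *Brd3* (0.926 over 23) and *Gab1* (0.916 over 21). The named genes are the top of long lists. Probes with an r of at least 0.8 numbered 471 for the mean of the members and 766 for *Oxa1l* A_55_P2134012. For *Tmem177* they numbered 1 with A_52_P251183 and 340 with A_52_P219372.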

How the data were processed

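RNA of each myofiber was amplified, labelled with Cy3 and hybridised to its own Agilent mouse array. Per the file headers and labels, Agilent Feature Extraction 10.7.3.1 gave the deposited processed signal intensity of each spot, background-subtracted, with probes placed on mm9. The authors also deposited a table of linear intensity values, made comparable between arrays and empty where a probe was not well above background, which served as an alternative. From the processed signal, log2 values were formed here and set against the 75th percentile of their array. A spot not found, not well above background or marked uneven gave no value, repeat spots were averaged, and a probe needed values on 75% of the arrays of a comparison. Means of the mice, as replicates, were compared by limma 3.58.1 in R 4.3.3 with all 7 mice in the fit, with Benjamini-Hochberg adjustment over all probes, two-sided. The procedure was tested on simulated data. Each member probe is named, as are list genes that were called (or the 2 with the largest difference where fewer were called), and the genes most like the members by r. The members and lists were chosen with earlier results of these data known. Lists were matched by symbol or, through RefSeq synonyms, by older symbol. No map of probes to exons was used. Alternatives covered filters, background, scaling, replicate unit, slide, scan day, pairing and each mouse left out. Leaving out Smn1deltaSKM myofibers 1 to 3, and the slide with 1 array of each group, were chosen after seeing the data.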

Additional observations from a re-analysis of the deposited data

Results flagged for a closer look

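In the group of 8 WT arrays, myofiber 5 (mouse 2) stood far from the others for *Cox10*. It lay at -1.37 and the nearest of the others at 0.75, a gap of 0.785 of the whole range of the group. Of 20 groups of arrays examined over the tested probes this was 1, where chance marks about 1 in 20. The same myofiber had 2.63 for *Cox11*, 4.14 for *Oxa1l* A_55_P2134012 and 2.74 for *Surf1*, within the WT range of each. The WT mean of *Cox10*, and with it the difference from Smn1deltaSKM, rests in part on this array: without WT mouse 2 the difference was -1.33 and without WT mouse 1 it was -0.70, and neither was called (limma, adjusted p = 0.101 and 0.342). The cause of the low value was not tested.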

How the results depend on the processing

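Over 659 differences of the tested member probes under other settings, 562 kept their direction and their side of the threshold, 33 lost a call, 17 gained one, 41 changed sign and 6 without a test moved. Between Smn1deltaSKM and WT, *Tmem177* A_52_P219372 kept its call in 19 of 21 settings (-2.44 to -0.97) and lost it without either WT mouse. In that comparison 3 member probes were called, against 5 with the measured signal kept (none of *Cox10* or the brighter *Oxa1l* probe among them), 1 with quantile normalization, 1 with normexp, 1 with arrays centred on the probes detected on every array, 6 with myofibers as replicates, 5 with the mouse and 1 with the slide as a random block, 1 with only these 2 groups fitted, and 0 to 7 with 1 mouse left out. In the same order the 7 genes of the lists became 3, 1, 2, 3, 19, 9, 2, 3 and 0 to 11, and were 3 without a filter and 1 with the table of the authors. All calls numbered 4876 of 22882 probes, against 12311 with myofibers, 7922 with the mouse and 2388 with the slide as a block, 3000 with the replicate block, 9961 without Smn1deltaSKM mouse 1, and 1879 and 2092 without mice 2 and 3. They numbered 3597 with quantile normalization, 3532 with normexp, 4039 with the centred arrays and 3632 with only these 2 groups fitted. With the measured signal kept they numbered 7026 of 55681. Of the 4876 calls 67.0% were lower, and 46.6% with the centred arrays, which moved the median of all probes from -0.16 to 0.054. Between Smn1deltaSKM+AFS and WT, where 0 were called, myofibers as replicates gave 4 probes and 6 list genes, among 9155 of all 22169 probes. There the measured signal gave 3 probes, among 2759 of all 55681. Leaving out 1 mouse gave 0 to 2 probes and 0 to 4 list genes, among 0 to 6501 of all probes.

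Mice of the same number were not shown to be paired: their deviations correlated at 0.154 and 0.048 (WT with Smn1deltaSKM), -0.054 and -0.054 (WT with Smn1deltaSKM+AFS), and 0.300 and 0.189 (Smn1deltaSKM with Smn1deltaSKM+AFS). Smn1deltaSKM mouse 3 and Smn1deltaSKM+AFS mouse 2, of unlike number, had 0.313. In a group of 2 mice the deviations mirror each other, so these values cannot decide whether mice were paired. With the replicate block 1 member probe, *Tmem177* A_52_P219372, and 3 list genes were called between Smn1deltaSKM and WT. *Surf1* then gave 0.28 there, and *Sco2* -0.10 between Smn1deltaSKM+AFS and Smn1deltaSKM.

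Sign changes were of differences not called. *Surf1* between Smn1deltaSKM and WT became 0.16 with quantile normalization and with the table of the authors, 0.11 with normexp, 0.18 centred and 0.42 with the slide block, and -0.77 to 0.39 with 1 mouse left out. Between Smn1deltaSKM+AFS and WT it became 0.06 with quantile normalization, 0.06 with the table of the authors and 0.05 centred (-0.18 to 0.03 with 1 mouse left out). *Tmem177* A_52_P251183 became -0.01 with normexp and -0.58 with a gene's probes averaged (-0.12 to 0.27), and *Cox15* -0.01 with myofibers and -0.05 with the slide block (-0.13 to 0.15). Between Smn1deltaSKM+AFS and Smn1deltaSKM, the slide block gave -0.25 for *Cox11* and -0.26 for *Sco2*. Scan day 1 gave -0.99 for *Cox11*, -0.13 for *Cox15*, -1.05 for *Sco2* and -0.28 for *Tmem177* A_52_P251183. The shared slide gave -0.67 for *Cox11*, -0.57 for *Sco2* and -0.11 for *Tmem177* A_52_P219372. *Surf1* was 0.14 on scan day 2. Without Smn1deltaSKM myofibers 1 to 3 it was 0.24, and *Cox17* A_55_P2036967 was -0.13. With 1 mouse left out *Cox11* ran from -0.18 to 0.46, *Cox17* A_55_P2036967 from -0.10 to 0.49 and A_55_P2095973 from -0.02 to 0.56, *Sco2* from -0.12 to 0.49 and *Surf1* from -0.46 to 0.70. Where 1 mouse was left in a group, it was assumed to vary like the others. The cause of these changes was not tested.

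With 2 or 3 mice a group the printed intervals are wide. WT arrays shared no slide or scan day with the others, so no value within a batch exists for comparisons with WT. For 6 of 16 probes signals near the background limit what can be said.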
